A study of Mus musculus with 18 samples.

Results

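The genes examined were the 119 protein-coding genes whose symbols start with Rab or Vps and a number, or with Atp6v, out of 22270 protein-coding genes in the GENCODE vM1 annotation of the mouse genome build mm9. They encode Rab GTPases and some of their partners, vacuolar protein sorting (Vps) proteins and subunits of the vacuolar proton pump (V-ATPase). The members were chosen by symbol, with earlier results of these data known. The locus of a gene was its annotated span with 10 kb on either side. The median locus measured 45.4 kb for the members and 35.4 kb for all protein-coding genes, and no member loci overlapped each other.

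Rab GTPases are molecular switches that give endosomes, lysosomes and secretory vesicles their identity and recruit the proteins that move, tether and fuse them. Vps proteins form the complexes that sort cargo between these compartments, among them retromer, HOPS, CORVET, GARP and ESCRT. The symbols also take in genes of other function, such as *Vps72*, which encodes a nuclear histone chaperone of chromatin-remodelling complexes. The V-ATPase consists of a membrane sector, V0, and a cytosolic catalytic sector, V1, and acidifies endosomes and lysosomes. Macrophages depend on this system to mature phagosomes and to degrade what they engulf, whereas lymphocyte precursors are not phagocytic.

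The chromatin came from C10 cells, a pre-B line derived from HAFTL cells that carries C/EBPα fused to the estrogen receptor hormone-binding domain and marked with GFP. β-Estradiol (β-Est) moves the fusion into the nucleus, and induced cells were grown with IL-3 and CSF-1, whereas controls received the ethanol solvent. ChIP-seq libraries were made for C/EBPα (8 libraries: 0 hr post-induction, hpi, 10, 30 and 60 min, and 3, 12, 24 and 48 hpi), for C/EBPβ (5 libraries) and for PU.1 (5 libraries), the latter at 0, 3, 12, 24 and 48 hpi. Each of the 18 libraries was the sole one of its factor and time. All libraries came from this line, and its identity could not be checked here, since no expression data were analysed.

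The C/EBPα libraries held 5968544 to 24909437 reads, the C/EBPβ libraries 2901164 to 5843194 and the PU.1 libraries 6574957 to 11349498. Reads were counted in bins of 200 bp and scaled to a library of 10000000 reads, and all levels given here are such scaled reads in 1 bin. A bin was called occupied when its reads reached a Poisson p of 1e-07 over the genome mean and a Poisson p of 1e-04 with 4-fold enrichment over the surrounding 10 kb. Called bins of a factor were merged into sites, and the bin with most reads represents the site. A site was termed higher or lower when 2 libraries differed at least 2-fold and the exact conditional 95% interval of their ratio excluded 1. With no replicates there was no test between time points, and all intervals cover counting error only. Intervals of shares treat genes or sites as independent, although 1 gene can hold several sites, and are no test of members against background. The C/EBPα libraries of 10, 30 and 60 min were read on another sequencer (HiSeq2000 in place of GA IIx) with longer reads, so that the effects of time and sequencer cannot be told apart there.

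The sequences of 7 summit bins are given because the results turn on them: the C/EBPα and C/EBPβ sites of *Atp6v0a1*, *Atp6v1b2*, *Rab27a*, *Rab11b* and *Vps26a*, and the PU.1 sites of *Rab21* and *Vps13d*. All are mm9, forward strand, 5′ to 3′, and overlap no annotated exon. Distances are to the closest annotated transcription start site (TSS) of the gene. Capitals mark the C/EBP consensus TTGCNNAA and the PU.1 consensus GAGGAAGT on either strand. The C/EBP consensus occurs in 8.66% of the 6272780 bins of all protein-coding loci and the PU.1 consensus in 1.18%.
*Atp6v0a1*, 1065 bp upstream of the TSS, chr11:100869601-100869800: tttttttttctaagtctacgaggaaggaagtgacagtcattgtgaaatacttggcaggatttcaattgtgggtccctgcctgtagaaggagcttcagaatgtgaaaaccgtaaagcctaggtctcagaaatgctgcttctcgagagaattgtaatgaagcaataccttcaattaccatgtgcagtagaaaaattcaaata
*Atp6v1b2*, intron, 2556 bp downstream of the TSS, chr8:71615001-71615200: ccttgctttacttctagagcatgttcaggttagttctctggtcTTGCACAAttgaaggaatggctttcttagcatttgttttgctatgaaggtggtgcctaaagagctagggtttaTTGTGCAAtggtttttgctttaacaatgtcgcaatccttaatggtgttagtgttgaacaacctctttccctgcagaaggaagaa
*Rab27a*, intron, 44829 bp downstream of the TSS, chr9:72937401-72937600: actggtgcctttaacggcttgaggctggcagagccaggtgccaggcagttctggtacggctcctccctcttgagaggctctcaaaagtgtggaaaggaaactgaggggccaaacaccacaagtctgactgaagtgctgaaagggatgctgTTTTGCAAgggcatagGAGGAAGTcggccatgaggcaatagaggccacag
*Rab11b*, intron, 289 bp downstream of the TSS, chr17:33886401-33886600: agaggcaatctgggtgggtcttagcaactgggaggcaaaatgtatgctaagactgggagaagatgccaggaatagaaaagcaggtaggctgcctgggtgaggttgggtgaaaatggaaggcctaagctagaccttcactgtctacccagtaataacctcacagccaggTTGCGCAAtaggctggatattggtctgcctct
*Vps26a*, 548 bp upstream of the TSS, chr10:61950001-61950200: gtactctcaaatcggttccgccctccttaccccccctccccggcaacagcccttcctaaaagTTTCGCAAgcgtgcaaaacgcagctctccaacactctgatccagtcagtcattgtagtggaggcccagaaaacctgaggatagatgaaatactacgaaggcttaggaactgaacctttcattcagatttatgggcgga
*Rab21*, 454 bp upstream of the TSS, chr10:114753001-114753200: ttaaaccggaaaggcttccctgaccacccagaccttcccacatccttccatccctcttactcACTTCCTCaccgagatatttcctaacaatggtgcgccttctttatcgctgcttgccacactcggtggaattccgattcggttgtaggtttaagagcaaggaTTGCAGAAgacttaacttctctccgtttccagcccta
*Vps13d*, intron, 78794 bp downstream of the closest *Vps13d* TSS, chr4:144701601-144701800: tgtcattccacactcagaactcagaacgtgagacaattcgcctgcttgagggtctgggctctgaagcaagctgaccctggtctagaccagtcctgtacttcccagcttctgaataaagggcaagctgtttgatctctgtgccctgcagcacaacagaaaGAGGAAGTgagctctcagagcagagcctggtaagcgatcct

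The libraries show where the 3 factors occupied the chromatin of these genes as the cells moved from the pre-B to the macrophage state. In pre-B cells, C/EBPα occupied 8 of the 119 loci (6.72%, 95% interval 2.95% to 12.8%) and C/EBPβ 3 (2.52%), close to the backgrounds of 7.62% and 2.81% over all protein-coding loci. PU.1 was already present at 88 loci (73.9%, 65.1% to 81.6%), against 48.6% of all loci. C/EBPα then reached 58 loci at 60 min (48.7%, against 33.3%) and 64 at 3 hpi (53.8%, against 34.8%), and occupied 43 at 48 hpi (36.1%, 27.5% to 45.4%, against 20.0%). The library of 60 min was the deeper of these, with 19536916 reads against 7954398 at 48 hpi. C/EBPβ occupied 36 loci at 24 hpi (30.3%, against 15.8%) and 61 at 48 hpi (51.3%, 41.9% to 60.5%, against 29.4%). Its library of 24 hpi held 3122683 reads and that of 48 hpi 5073864. With C/EBPβ libraries thinned to the smallest, 41 loci were occupied at 48 hpi. PU.1 peaked with 111 loci at 12 hpi (93.3%, against 65.6%) and occupied 100 at 48 hpi (84.0%, 76.2% to 90.1%, against 55.1%). Called PU.1 bins over the genome were also most numerous at 12 hpi (75668, against 52672 at 48 hpi). Whether this single library had a higher ChIP yield was not tested. The PU.1 library of 0 hpi held 7051533 reads, against 10713201 at 12 hpi and 10465427 at 48 hpi. With PU.1 libraries thinned to the smallest, 84 loci were occupied at 0 hpi and 91 at 48 hpi. No thinned share of all protein-coding loci is given for C/EBPβ or PU.1, so the thinned counts describe the members only. A thinned C/EBPβ count of 24 hpi is not given either.

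**Figure D1:**
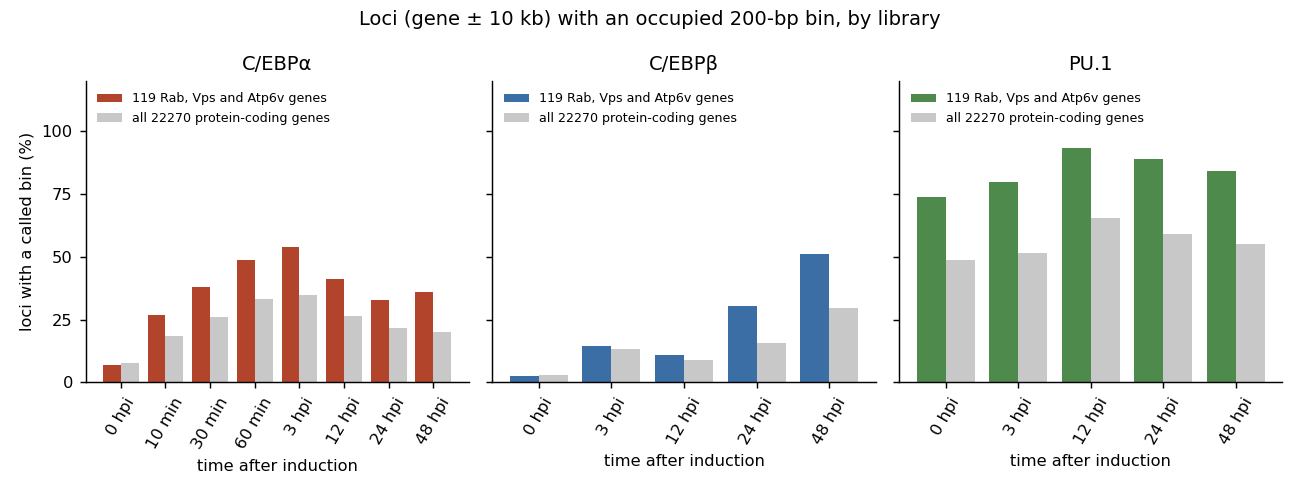
Percent of loci with at least 1 called bin in each library (vertical axis) by time after induction, for the 119 Rab, Vps and Atp6v genes (coloured bars) and all 22270 protein-coding genes (grey bars), 1 library per bar pair. The coloured bars of C/EBPα rise from 6.72% at 0 hpi to 53.8% at 3 hpi, those of C/EBPβ reach 51.3% at 48 hpi, and those of PU.1 start at 73.9%.

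Longer loci have more room for a called bin, and the loci of the members were longer at the median. Per megabase of locus, called bins numbered 10.6 for C/EBPα at 48 hpi in member loci and 4.98 in all protein-coding loci. The corresponding densities were 17.9 and 9.50 for C/EBPβ at 48 hpi, 35.9 and 21.6 for PU.1 at 0 hpi, and 58.2 and 30.7 for PU.1 at 48 hpi. At 0 hpi the densities of C/EBPα (1.01 and 1.27) and C/EBPβ (0.380 and 0.464) were not higher in the member loci.

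Across its libraries, C/EBPα had 230 sites in the loci of 86 members (72.3%, against 47.0% of all protein-coding loci), C/EBPβ 113 sites in 64 (53.8%, against 31.8%) and PU.1 449 sites in 112 (94.1%, against 69.1%). No called bin of any factor in the 18 libraries was found for 4 members (3.36%, 0.923% to 8.38%, against 27.8%), namely *Rab34*, *Rab38*, *Rab9b* and *Rab42-ps*. Called bins of all 3 factors at 48 hpi were present in 30 loci (25.2%, 17.7% to 34.0%, against 15.8% of all protein-coding loci), which included those of *Rab7*, the late endosome Rab, *Rab27a*, which acts on lysosome-related organelles, *Vps26a* of retromer, and 4 V-ATPase genes (*Atp6v0a1*, *Atp6v1b2*, *Atp6v1e1* and *Atp6v1g2*). C/EBPβ without C/EBPα was found at 48 hpi in 27 loci (22.7%, 15.5% to 31.3%, against 12.7%) and C/EBPα without C/EBPβ in 9 (7.56%, 3.52% to 13.9%, against 3.22%), and the C/EBPβ library was the shallower.

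**Figure D2:**
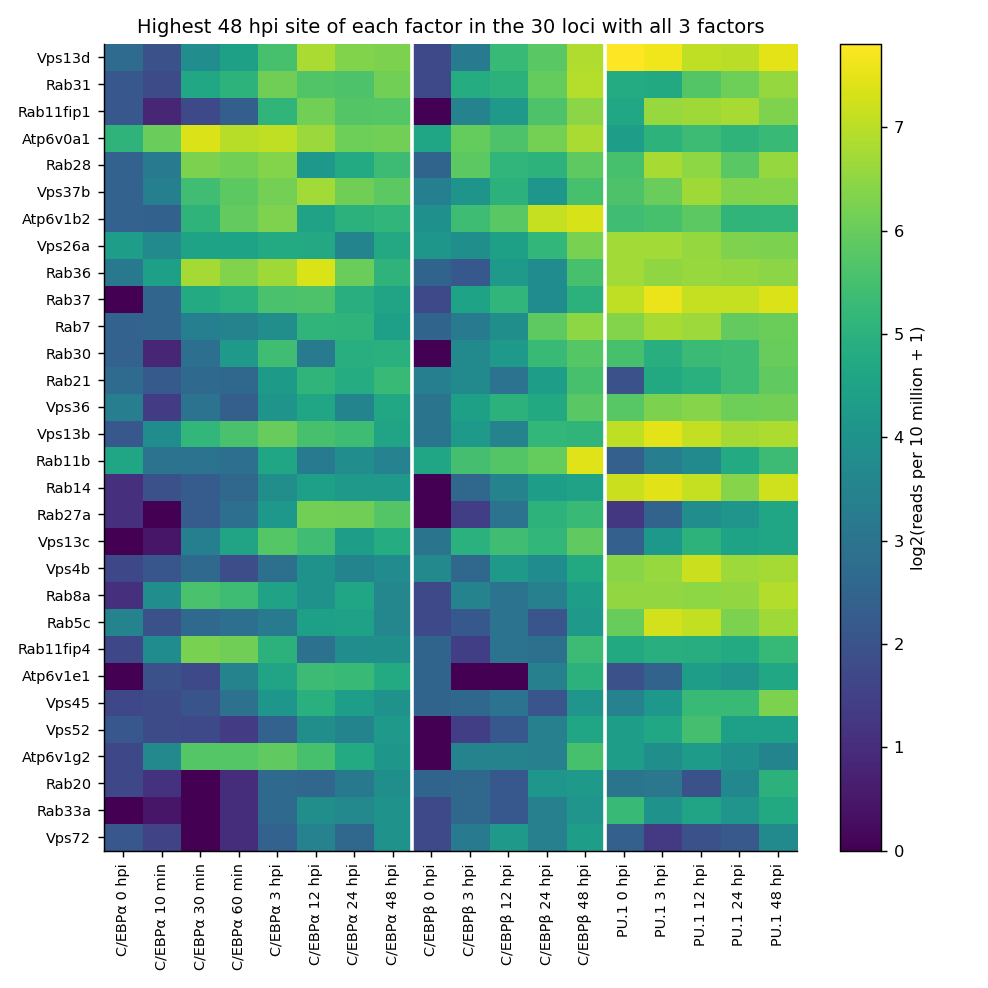
Reads in the summit bin of the highest 48 hpi site of each factor, for the 30 loci with all 3 factors at 48 hpi. There is 1 row per gene and 1 column per library, with colour as the log2 of scaled reads + 1. The C/EBPα and C/EBPβ columns of 0 hpi hold at most 14.0 reads in every row other than Atp6v0a1, Rab11b and Vps26a, whereas PU.1 at 0 hpi is below 5 reads in Rab21, Rab27a, Rab11b, Atp6v1e1, Vps13c and Vps72 alone.

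Sites lay both at promoters and deep in introns. Of the sites called at 48 hpi, 24 of 67 for C/EBPα (35.8%, 24.5% to 48.5%), 28 of 103 for C/EBPβ (27.2%, 18.9% to 36.8%) and 70 of 279 for PU.1 (25.1%, 20.1% to 30.6%) were centred within 1 kb of an annotated TSS. The closest TSS belonged to the member itself at 47 of the C/EBPα, 72 of the C/EBPβ and 205 of the PU.1 sites. The remaining sites are assigned to a member by position only and are closer to a neighbouring gene. These counts of distance to a TSS were not made for the sites of all protein-coding loci, so they describe the members only.

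Occupied loci were also counted by the role of the gene products, as a description without a test. The backgrounds for these counts are the shares of all protein-coding loci given above, at 48 hpi 20.0% for C/EBPα, 29.4% for C/EBPβ and 55.1% for PU.1, and 48.6% for PU.1 at 0 hpi. Among the V1 subunits of the V-ATPase, which carry out ATP hydrolysis, C/EBPβ occupied 9 of 13 loci at 48 hpi. C/EBPα occupied 4 of these loci at 48 hpi, after 9 at 3 hpi, and PU.1 occupied 8 at 0 hpi and 9 at 48 hpi. Of 13 C/EBPβ sites in V1 loci, 9 were higher at 48 than at 0 hpi (against 76.3% of the sites of all protein-coding loci), each in a different gene, with 15.8 to 159.6 reads at 48 hpi. Among the V0 subunits, which form the proton path, PU.1 occupied 6 of 9 loci at 0 hpi and all 9 at 48 hpi, whereas C/EBPα and C/EBPβ occupied 2 each at 48 hpi.

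The early endosome Rabs, which include the 3 Rab5 genes, *Rab4a*, *Rab4b*, *Rab21*, *Rab22a* and *Rab31*, had C/EBPβ at 48 hpi in 7 of 8 loci, C/EBPα in 3 and PU.1 in 6. In the secretory pathway Rabs, which act between the endoplasmic reticulum, Golgi and plasma membrane, the numbers were 6, 3 and 10 of 10. The 4 Vps13 genes, which encode bridge-like lipid transfer proteins, had 11 of 12 C/EBPα sites (against 62.6% of the sites of all protein-coding loci) and 13 of 14 C/EBPβ sites (against 76.3%) that were higher at 48 than at 0 hpi, all outside *Vps13a*. Of their 39 PU.1 sites, 22 were higher (against 24.0%) and 2 lower. These loci are long, at 175.2 to 579.8 kb. For ESCRT, whose complexes bud vesicles into multivesicular bodies, C/EBPα occupied 5 of 9 loci at 48 hpi and C/EBPβ 3. HOPS and CORVET, the tethers of late and early endosomes, had C/EBPα and C/EBPβ in 2 of 8 loci each and PU.1 in 7. The retromer genes had C/EBPα and C/EBPβ in 1 of 4 loci each and PU.1 in 3.

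The late endosome and lysosome Rabs (*Rab7*, *Rab7l1*, *Rab9* and *Rab9b*) had C/EBPα and C/EBPβ at 48 hpi in the locus of *Rab7* alone, where 2 of 2 C/EBPα sites (against 62.6%) and 4 of 5 C/EBPβ sites (against 76.3%) were higher than at 0 hpi. Of the 5 recycling Rabs, C/EBPα occupied 2, C/EBPβ 3 and PU.1 all 5 at 48 hpi, and of their 15 PU.1 sites 4 were higher at 48 than at 0 hpi (against 24.0% of the sites of all protein-coding loci) and 4 lower (against 13.7%). The 10 Rabs of exocytosis and lysosome-related organelles had C/EBPα in 3 loci, C/EBPβ in 4 and PU.1 in 8. Among the 9 Rab partners and regulators the numbers were 3, 4 and 7, and among the 21 other Rab GTPases 8, 11 and 16. All 3 genes of GARP, which tethers endosome-derived vesicles at the Golgi, and EARP, which acts at recycling endosomes, had C/EBPβ and PU.1, and C/EBPα was called in *Vps52*.

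The V-ATPase subunits described next were picked after their values were seen. PU.1 at *Atp6v0c*, which encodes the proteolipid ring subunit, had 9.93, 66.9, 82.1, 55.5 and 100.3 reads at 0, 3, 12, 24 and 48 hpi (10.1-fold, 4.74 to 25.8). At *Atp6v0d1*, a V0 stalk subunit, PU.1 had 5.67 reads at 0 hpi and 56.4 at 48 hpi (9.94-fold, 3.68 to 37.7). At *Atp6v0e2* the values were 14.2 and 91.7 (6.47-fold, 3.37 to 13.9). The rise at *Atp6v0c* was present by 3 hpi, whereas PU.1 at *Atp6v0d1* was 14.1 at 24 hpi. *Atp6v0d2*, the d subunit form of osteoclasts and macrophages, had no C/EBP site, and PU.1 there had 34.0 reads at 0 hpi and 67.8 at 48 hpi (1.99-fold, 1.24 to 3.31). At the start site of *Atp6v1f*, C/EBPβ had 7.01 reads at 0 hpi and 82.8 at 48 hpi (11.8-fold, 3.78 to 59.6), and C/EBPα was highest at 30 min with 41.5.

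**Figure D3:**
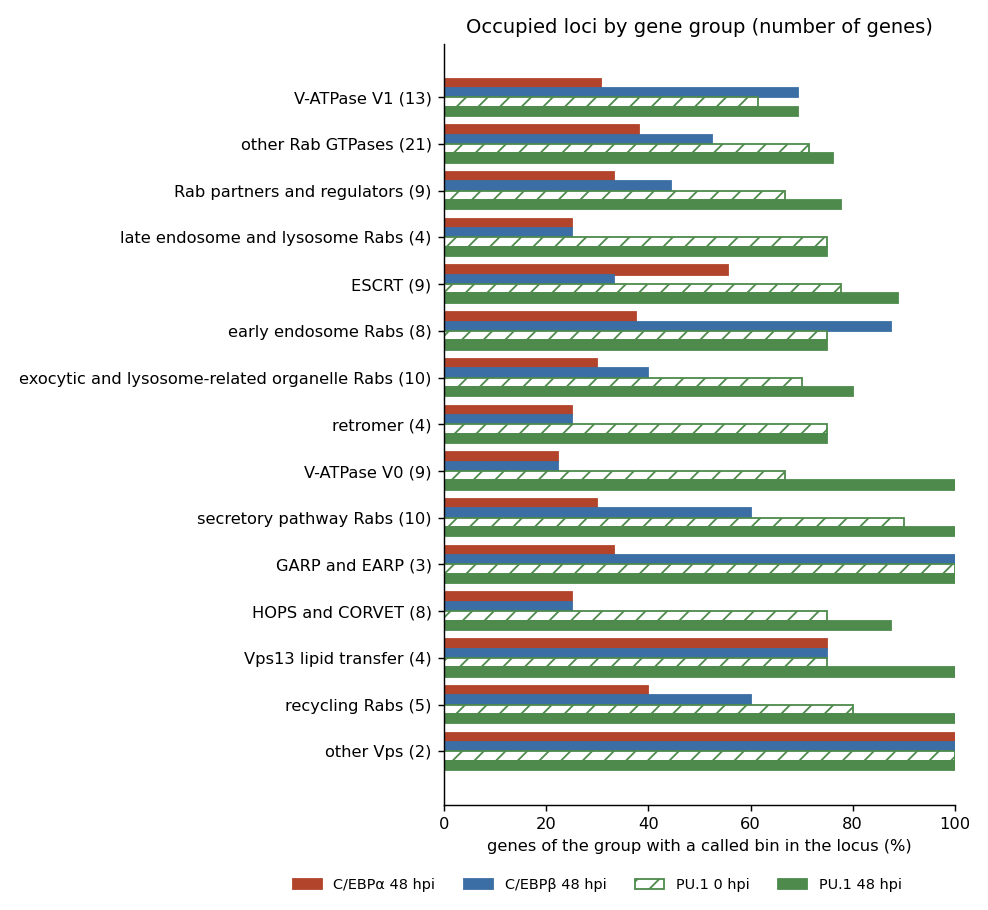
Percent of the genes of each group with a called bin in the locus (horizontal axis) for C/EBPα, C/EBPβ and PU.1 at 48 hpi (filled bars) and PU.1 at 0 hpi (hatched bars), with the number of genes in parentheses. Groups of 2 to 4 genes move in large steps, and the C/EBPβ bar exceeds the C/EBPα bar in V1 (9 against 4 genes), early endosome (7 against 3) and secretory Rabs (6 against 3) but not in ESCRT (3 against 5). A single called bin counts a locus, also one at the fewest reads that can be called.

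Most C/EBP sites of these loci were higher at 48 than at 0 hpi, as in all protein-coding loci. Of 71 C/EBPα sites called at either time, 53 were higher at 48 hpi (74.6%, 62.9% to 84.2%, against 62.6% of 5353 sites in all protein-coding loci) and 2 were lower (2.82%, against 3.57%). The 53 sites lay in 35 genes. Of 103 C/EBPβ sites, 81 in 53 genes were higher (78.6%, 69.5% to 86.1%, against 76.3% of 8714) and none was lower. Lower C/EBPβ sites were not counted over all protein-coding loci, so their absence describes the members only. Median ratios of 48 over 0 hpi were 6.02 for the C/EBPα sites (4.46 over all loci) and 10.4 for the C/EBPβ sites (8.44). Because sites had to be called at 1 of the times compared, their choice favours large ratios in members and background alike.

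The C/EBPα site with most reads at 48 hpi was in an intron of *Vps13d*, one of the lipid transfer genes, at chr4:144627001-144627200, 62515 bp upstream of the closest annotated *Vps13d* TSS. C/EBPα reads there were 5.64, 2.81, 13.1, 20.5, 44.9, 110.6, 79.1 and 76.7 from 0 hpi to 48 hpi, a 13.6-fold rise (95% interval 5.52 to 43.4). The level was highest at 12 hpi and first called at 30 min. C/EBPβ reads in the same bin were 2.34, 8.56, 37.9, 54.4 and 116 at 0, 3, 12, 24 and 48 hpi, whereas PU.1 reads did not exceed 15.0. Another C/EBPα site of *Vps13d*, at chr4:144609201-144609400, followed an earlier course, with 2.26 reads at 0 hpi, 77.7 at 30 min, 91.7 at 3 hpi and 46.5 at 48 hpi.

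*Atp6v0a1*, which encodes an a subunit of the V0 proton channel, had the C/EBPα site with most reads at 0 hpi among those that rose. Reads upstream of its TSS were 32.7, 64.6, 166, 124, 131, 97.2, 67.2 and 69.1 in the order of the C/EBPα libraries. C/EBPα was called there in all 8 libraries, was highest at 30 min and at 48 hpi stood 2.11-fold above 0 hpi (1.32 to 3.44) and below 3 hpi, at a ratio of 0.527 (0.379 to 0.723). In the same bin, C/EBPβ reads were 23.4, 61.6, 48.3, 70.5 and 112 and PU.1 reads 49.6, 60.8, 58.8, 32.6 and 60.2 at 0, 3, 12, 24 and 48 hpi. This C/EBP summit was not the summit of a PU.1 site. The PU.1 summit of the locus with most reads at 48 hpi lay 9665 bp upstream of the TSS, with 19.9 reads at 0 hpi and 38.2 at 48 hpi. At the summit of the 1 lower PU.1 site of the locus, reads went from 79.4 to 22.9. The C/EBP summit bin has no TTGCNNAA match, as printed above, which says only that these letters are not in that window.

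*Rab31*, a Rab of early endosomes and the trans-Golgi, was occupied in an intron at chr17:66068001-66068200, 53881 bp downstream of the TSS. C/EBPα reads were 3.38, 2.41, 24.6, 32.2, 68.3, 50.3, 48.8 and 69.1, and those of C/EBPβ 2.34, 27.4, 31.0, 60.8 and 120.2. PU.1 reads in this bin were 4.25 at 0 hpi and 36.3 at 48 hpi. All 3 factors were low at 0 hpi, and C/EBPα reached at 3 hpi the level it had at 48 hpi, whereas C/EBPβ and PU.1 were highest at 48 hpi, with ratios of 20.4 for C/EBPα (6.64 to 102) and 51.5 for C/EBPβ (8.90 to 2066, from a single read at 0 hpi).

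*Rab27a*, a Rab that tethers lysosome-related organelles for secretion, had the largest C/EBPα ratio of sites with reads at 0 hpi. The site is closer to a TSS of 2410004A20Rik. C/EBPα reads were 1.13, 0, 3.85, 6.14, 17.1, 70.4, 68.6 and 51.5, which gave a ratio of 45.7 (7.76 to 1849) on 1 read at 0 hpi. C/EBPβ went from no read at 0 hpi to 37.4 scaled reads at 48 hpi, and PU.1 from 1.42 to 22.9. At this site C/EBPα was low through 60 min and was highest at 12 hpi, and the bin printed above holds both a C/EBP and a PU.1 consensus. C/EBPα at 48 hpi stood 3.02-fold above 3 hpi (1.71 to 5.51).

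*Rab11fip1*, an effector of the recycling Rab Rab11, and *Rab21*, an endocytic Rab, were occupied near their promoters. *Rab11fip1* had C/EBPα reads of 3.38, 0.803, 2.31, 4.09, 33.3, 70.4, 51.4 and 52.8 in a bin 581 bp upstream of the TSS (chr8:28285601-28285800), a 15.6-fold rise (4.99 to 78.7). *Rab21* had 5.64, 3.61, 5.38, 5.12, 18.0, 33.5, 27.7 and 37.7, a 6.69-fold rise (2.57 to 22.1). In both, C/EBPα was at most 5.38 reads from 10 to 60 min and above its level of 0 hpi from 3 hpi. PU.1 at 0 hpi had 24.1 reads in the *Rab11fip1* bin and 2.84 in that of *Rab21*.

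*Vps37b*, a subunit of ESCRT-I, carried a C/EBPα site in an intron 6968 bp downstream of its TSS (chr5:124475201-124475400) with 4.51 reads at 0 hpi, 104 at 12 hpi and 56.6 at 48 hpi (12.5-fold, 4.57 to 48.0). *Rab28* had an intronic site 80013 bp downstream of its TSS with 75.4 reads at 30 min, 80.9 at 3 hpi, 16.8 at 12 hpi and 40.2 at 48 hpi, against 4.51 at 0 hpi. The dip at 12 hpi at *Rab28* rests on 10 reads. The remaining genes with large C/EBPα ratios, *Rab14*, *Rab3d* and *Rab2b*, had 1.13 reads (1 read) at 0 hpi and 17.6, 17.6 and 12.6 at 48 hpi. A site of *Vps52* tied with that of *Rab2b*, at a ratio of 11.1.

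**Figure D4:**
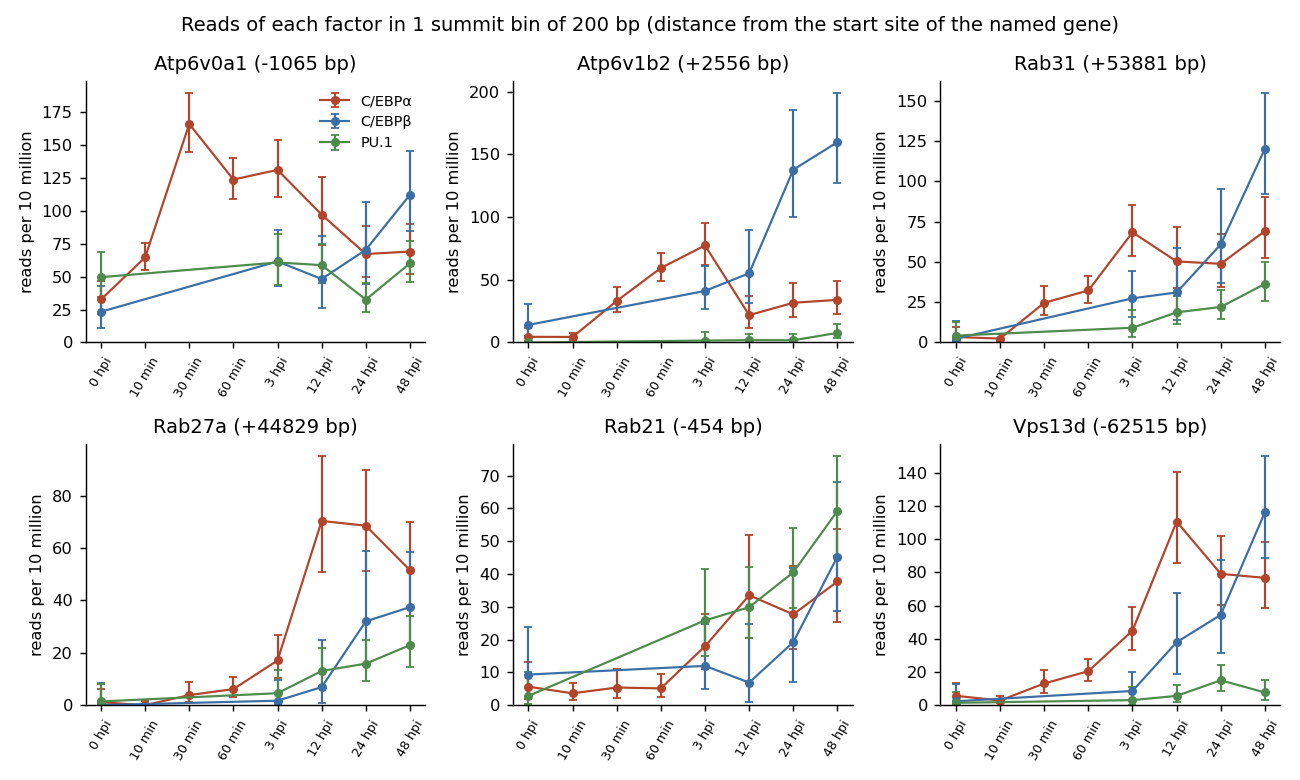
Scaled reads of the 3 factors (vertical axis, with exact Poisson 95% intervals) by time after induction in a single 200-bp bin of 6 genes, with the distance from the TSS in the panel titles and 1 library per point. C/EBPα peaks at 30 min at Atp6v0a1 (166) and at 12 hpi at Vps13d (110.6) and Rab27a (70.4), while C/EBPβ is highest at 48 hpi in all 6 panels. The sites shown were taken from those with most C/EBPα or C/EBPβ reads at 48 hpi, which favours that time.

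C/EBPβ was highest at 48 hpi at 86 of its 113 member sites (76.1%, compared with 71.2% of the sites of all protein-coding loci). Of these 113 sites, 103 were called at 48 hpi and 64 were called in 1 library only. The choice of sites therefore favours 48 hpi, in members and background alike. The site with most reads lay in an intron of *Rab11b*, a recycling endosome Rab, with 23.4, 44.5, 51.7, 60.8 and 171 reads at 0, 3, 12, 24 and 48 hpi (7.34-fold, 3.81 to 15.8). C/EBPα reads in the same bin were 23.7, 6.82, 6.92, 6.14, 23.4, 8.38, 13.2 and 10.1 in the order of the libraries, with 3 hpi at the level of 0 hpi and a ratio of 48 over 0 hpi of 0.425 whose interval (0.163 to 0.998) nearly reaches 1. PU.1 did not exceed 1.76. The bin printed above contains the palindromic match TTGCGCAA.

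*Atp6v1b2*, which encodes the widely expressed B2 subunit of the V1 sector, had C/EBPβ reads of 14.0, 41.1, 55.2, 138 and 159.6 (11.4-fold, 5.01 to 32.0). C/EBPα reads in this intronic bin were 4.51, 4.42, 33.1, 59.4, 77.3, 21.8, 31.6 and 33.9, with the maximum at 3 hpi, and PU.1 stayed at or below 7.64. C/EBPα was highest when C/EBPβ was still at 41.1, and C/EBPβ was highest at 48 hpi. The bin holds 2 matches to the C/EBP consensus and is closer to a TSS of Slc18a1 than to that of *Atp6v1b2*.

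In the locus of *Atp6v1a*, the catalytic A subunit, a bin 2230 bp downstream of the TSS was called for C/EBPβ at 48 hpi and at no other time, with 2.34, 1.71, 17.2, 16.0 and 61.1 reads (26.2-fold, 4.36 to 1066, from 1 read). C/EBPα in that bin had 3.38 reads at 0 hpi and 8.80 at 48 hpi and was called at 3 hpi only. *Rab5a*, the early endosome Rab, had 2.34 C/EBPβ reads at 0 hpi and 47.3 at 48 hpi in an intron 9542 bp downstream of its TSS, and *Rab1*, which acts between endoplasmic reticulum and Golgi, 2.34 and 35.5 at 534 bp upstream. At neither of these was a C/EBPα bin of 48 hpi called within 1000 bp. *Rab6b*, a Golgi Rab, had 2.34 C/EBPβ reads at 0 hpi and 61.1 at 48 hpi in an annotated UTR, where C/EBPα had 14.7 and 10.1.

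*Rab11fip1* had no C/EBPβ read at 0 hpi and 86.7 scaled reads at 48 hpi, 12.4-fold a floor of 3 reads at 0 hpi (exact lower 95% limit of the ratio 9.65). The *Vps13d* and *Rab31* sites described above also ranked among the 8 genes with the largest C/EBPβ ratios when sites with no read at 0 hpi are set against the floor of 3 reads, as did a site in the locus of *Rab7* (scaled C/EBPβ reads of 4.67 before induction and 88.7 at the end) that lies 26876 bp downstream of the *Rab7* TSS, in an intron of *Gm5577*. In the *Rab11fip5* locus, the C/EBPβ site with 2.34 reads at 0 hpi and 37.4 at 48 hpi lies 312 bp from a TSS of *Sfxn5*.

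A V-ATPase gene that the symbols leave out is *Tcirg1*, which encodes the a3 subunit of lysosomes and osteoclasts (chr19:3896050-3907133). Its highest C/EBPα site at 48 hpi had 6.77 reads at 0 hpi, 25.1 at 12 hpi and 10.1 at 48 hpi (ratio of 48 over 0 hpi 1.49, 0.452 to 5.20). C/EBPβ at its highest *Tcirg1* site had 4.67 reads at 0 hpi and 23.7 at 48 hpi (5.06-fold, 1.13 to 46.6), and the highest PU.1 site was level at 66.7 and 66.9. A further PU.1 site within *Tcirg1* fell from 115 to 28.7 reads (ratio 0.250, 0.158 to 0.384), and another in its locus rose from 5.67 to 30.6 (5.39-fold, 1.91 to 21.0).

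The other a subunit genes among the members had no C/EBP call at 48 hpi. At *Atp6v0a2*, C/EBPα had 19.5 reads at 60 min and 1.26 at 48 hpi, and no C/EBPβ site was called. At *Atp6v0a4*, the subunit of kidney and inner ear, C/EBPα had 35.8 reads at 60 min and 3.77 at 48 hpi in a bin closest to a TSS of *Svopl*. PU.1 at *Atp6v0a4* had 36.9 reads at 0 hpi and 25.8 at 48 hpi (ratio 0.700, 0.393 to 1.25), a difference within the counting error.

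Among the retromer genes, which return receptors from endosomes to the Golgi, *Vps26a* had the sites with most C/EBP reads at 48 hpi. C/EBPα upstream of its TSS had 19.2 reads at 0 hpi and 25.1 at 48 hpi (1.31-fold, 0.652 to 2.67), a difference that counting error could give. C/EBPβ in the same bin rose from 16.3 to 74.9 (4.58-fold, 2.02 to 12.2), and PU.1 at a site 445 bp downstream of the TSS had 104 and 75.5 (ratio 0.729, 0.524 to 1.02). *Vps26b* had C/EBPα reads of 7.89 at 0 hpi, 46.6 at 60 min and 5.03 at 48 hpi, and its C/EBPβ site was called at 24 hpi only. PU.1 in an intron of *Vps26b* went from 155 to 91.7 reads (ratio 0.593, 0.446 to 0.788), less than a 2-fold change.

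For *Vps35*, the core of the retromer, the PU.1 site with most reads at 48 hpi had no read at 0 hpi and 13.4 scaled reads at 48 hpi, 3.14-fold a floor of 3 reads (exact lower 95% limit 2.24). Another PU.1 site of the locus was called at all 5 times, with 12.8 reads at 0 hpi and 12.4 at 48 hpi. *Vps35* had no C/EBPα or C/EBPβ site. *Vps29* had low values for C/EBPα (2.51 at 48 hpi) and PU.1 (7.64), at sites that were called at 60 min and 12 hpi respectively.

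C/EBPα occupancy was more extensive at 3 hpi than at 48 hpi in these loci. Of 133 sites called at 3 hpi, 46 were called again at 48 hpi (34.6%, 26.6% to 43.3%, against 27.6%). Among 154 sites called at either time, 65 were lower at 48 hpi (42.2%, 34.3% to 50.4%, against 51.8% of 13851 sites in all protein-coding loci) and 14 were higher (9.09%, against 6.84%). The median ratio of 48 over 3 hpi was 0.435 for member sites and 0.323 for all. With libraries thinned to an equal number of reads, 43 of 106 sites were lower (40.6%, 31.1% to 50.5%, against 53.2% of 9807).

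Among the lower sites, 9 in 8 genes had 0 reads at 48 hpi and so tie for the lowest ratio to 3 hpi. Such sites were not counted over all protein-coding loci. The 5 genes described next come first in genome order, and the others lie in *Vps13a*, *Vps13b* and *Rab9* with 9.89 to 11.7 reads at 3 hpi. A site 6673 bp upstream of *Rab11fip5*, an effector of Rab11, had 21.6 C/EBPα reads at 3 hpi, 18.4 at 12 hpi, 5.27 at 24 hpi and none at 48 hpi. In the *Vps26b* locus, a site 633 bp downstream of a TSS of *Acad8* had 16.2 and 0. *Rab8b*, *Rab3ip* and *Vps54* had 10.8, 9.89 and 9.89 reads at 3 hpi and 0 at 48 hpi. These correspond to 11 to 12 unscaled reads, close to the fewest that could be called in that library (11). Sites with more reads fell too, and an example chosen after its values were seen is an intronic *Rab31* site 42081 bp downstream of the TSS, with 112 C/EBPα reads at 3 hpi and 17.6 at 48 hpi (ratio 0.157, 0.0832 to 0.273).

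Of the 67 C/EBPα sites called at 48 hpi, 20 had a PU.1 bin called within 1000 bp at 0 hpi (29.9%, 19.3% to 42.3%, against 38.4% over all protein-coding loci). A PU.1 bin of 48 hpi was near 42 (62.7%, 50.0% to 74.2%, against 63.3%) and a C/EBPβ bin of 48 hpi near 44 (65.7%, 53.1% to 76.8%, against 77.8%). In the reverse view, 42 of 103 C/EBPβ sites of 48 hpi had C/EBPα nearby (40.8%, 31.2% to 50.9%, against 43.7%) and 30 had PU.1 at 0 hpi (29.1%, 20.6% to 38.9%, against 29.7%). C/EBPα and C/EBPβ shared the summit bin at 38 sites, 56.7% of the C/EBPα sites (44.0% to 68.8%, against 68.3%) and 36.9% of the C/EBPβ sites (27.6% to 47.0%, against 37.8%).

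At the 20 C/EBPα sites with PU.1 at 0 hpi, median C/EBPα reads were 3.95, 4.42, 8.46, 12.8, 29.7, 18.4, 21.8 and 20.1 in the order of the libraries. At the 47 sites without PU.1 they were 3.38, 2.81, 6.92, 7.17, 17.1, 16.8, 15.8 and 16.3. The medians of the former were higher in every library, but their interquartile ranges overlapped in every library (at 3 hpi 6.29 to 64.9 with PU.1 and 7.19 to 34.6 without). Over all protein-coding loci, median C/EBPα reads at 60 min were 22.0 with PU.1 at 0 hpi against 9.47 without. In the 3 hpi library these medians stood at 27.0 against 19.8, and in that of 48 hpi both were 18.9. Genes of the former kind include *Atp6v0a1*, *Vps37b*, *Rab28* and *Rab11fip1*, and of the latter *Rab27a*, *Rab31* and *Rab21*, while *Vps13d* has 1 site of each kind among those named.

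The C/EBP consensus occurred in 17 of the 67 C/EBPα member sites of 48 hpi (25.4%, 15.5% to 37.5%), compared with 37.2% of the C/EBPα sites of all protein-coding loci. For C/EBPβ the shares were 36.9% (27.6% to 47.0%) and 41.0%. The PU.1 consensus was present in 26.0% of the PU.1 member sites of 0 hpi (19.7% to 33.0%), and in 26.7% of the PU.1 sites of all loci. The C/EBP and PU.1 shares exceeded the 8.66% and 1.18% of all bins. The intervals of the member shares include the values of all sites for C/EBPβ and PU.1 and reach just above 37.2% for C/EBPα.

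PU.1 occupancy of these genes was widespread before induction and shifted in both directions after it. Of 29290 PU.1 sites called at 0 or 48 hpi in all protein-coding loci, 17710 were called at 0 hpi and 24702 at 48 hpi. Of the 315 such sites in member loci, 181 were called at 0 hpi, 279 at 48 hpi and 145 at both times. A total of 87 sites in 48 genes were higher at 48 hpi (27.6%, 22.8% to 32.9%, against 24.0% of 29290 sites in all protein-coding loci), 27 sites in 21 genes were lower (8.57%, 5.72% to 12.2%, against 13.7%), and 201 were neither. In 13 of the 119 genes (10.9%, 5.95% to 18.0%, against 5.94% of all protein-coding genes), among them *Atp6v0a1*, *Rab14*, *Rab37* and *Vps13a*, some PU.1 sites were higher and others lower. Member loci were longer at the median and denser in called PU.1 bins, which leaves more room for both kinds. The share was not adjusted for that.

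The PU.1 site with most reads was in an intron of *Vps13d*, with 223, 199, 133, 126 and 177 reads at 0, 3, 12, 24 and 48 hpi (ratio of 48 over 0 hpi 0.794, 0.638 to 0.988). Neither C/EBP factor was called nearby, and the printed bin contains the full PU.1 consensus. *Rab14*, which acts between the trans-Golgi and endosomes, had 145, 175, 138, 82.8 and 151 PU.1 reads in an intron. In the locus of *Rab37*, a Rab of secretory granules, the highest PU.1 site (132 reads at 0 hpi, 167 at 48 hpi) coincides with a TSS of *Cd300lf*, a myeloid receptor gene that lies within *Rab37*.

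*Rab35*, an endosomal recycling Rab, had 199 PU.1 reads at 0 hpi and 145 at 48 hpi (ratio 0.732, 0.578 to 0.927) at a site 7637 bp upstream of its TSS. *Vps37c* (104 and 135) and *Vps54*, a subunit of GARP (128 and 121), also had high PU.1 levels at both times. The named sites of these 6 genes had PU.1 levels that moved by less than 2-fold between 0 and 48 hpi, whereas other PU.1 sites in several of these loci, among them *Rab14*, *Rab35* and *Rab37*, were higher or lower.

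*Atp6v1d* and *Vps13a* were the other 2 of the 8 genes with most PU.1 reads at 48 hpi. A site in the *Atp6v1d* locus, 6676 bp upstream of its TSS and in an intron of *Eif2s1*, had 49.6, 59.3, 79.3, 61.7 and 145.2 reads (2.93-fold, 2.02 to 4.36). At a *Vps13a* site 583 bp upstream of the closest TSS, the values were 55.3, 92.8, 87.7, 67.0 and 125 (2.26-fold, 1.57 to 3.32). Both were occupied at 0 hpi and higher at 48 hpi.

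Other PU.1 sites appeared from near 0. The bin upstream of *Rab21* had 2.84, 25.9, 29.9, 40.5 and 59.2 PU.1 reads (20.9-fold, 5.54 to 176, from 2 reads at 0 hpi), and C/EBPα and C/EBPβ reached 37.7 and 45.3 reads in the same bin at 48 hpi. At *Rab1*, an intronic site 2896 bp downstream of the TSS had 2.84 reads at 0 hpi and 49.7 at 48 hpi (17.5-fold, 4.61 to 148). PU.1 at *Rab31*, 7481 bp downstream of the TSS, had 5.67, 18.3, 27.1, 37.9 and 78.4 reads (13.8-fold, 5.19 to 51.9).

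*Rab21* and *Rab31* rose at each successive time point, whereas *Rab1* had 13.2 reads at 24 hpi, below its 31.7 at 12 hpi. At the *Rab27a*, *Rab6b*, *Rab8b*, *Rab20* and *Atp6v1c1* sites with large ratios, PU.1 had 1 read at 0 hpi, or 1.42 scaled reads, and 20.1 to 32.5 at 48 hpi. *Rab20* marks phagosomes and endosomes, and *Rab8b* acts in transport to the plasma membrane.

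**Figure D5:**
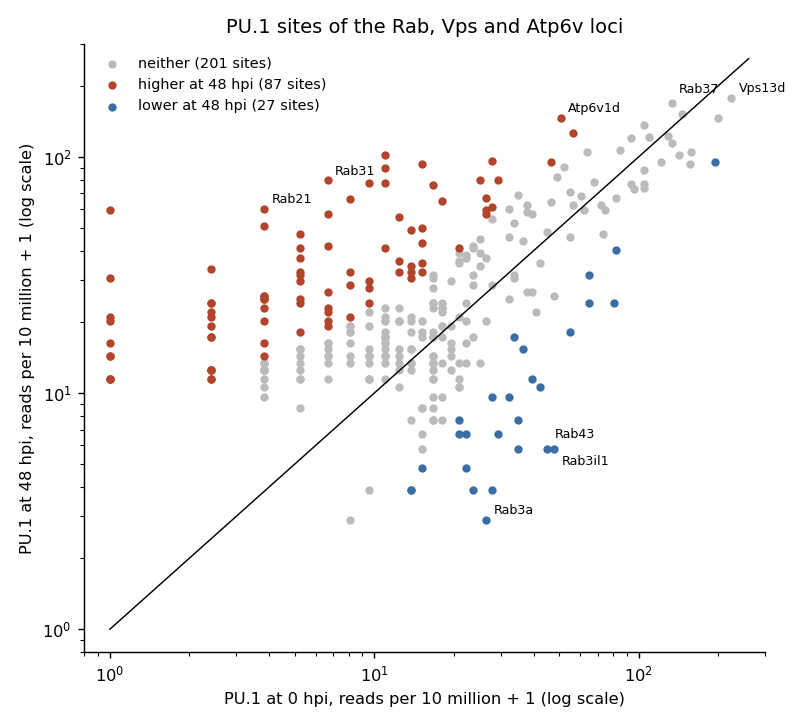
Scaled PU.1 reads + 1 at 0 hpi (horizontal, log scale) and 48 hpi (vertical, log scale) at the 315 member sites called at either time, 1 point per site, with the diagonal of equal values. The 87 higher sites (red) reach down to 0 reads at 0 hpi, and the 27 lower sites (blue) include those named for Rab3a, Rab3il1 and Rab43.

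The 8 genes with the largest PU.1 falls included loci whose site lies at a neighbouring gene. In the locus of *Rab3a*, a Rab of regulated exocytosis, PU.1 had 25.5, 19.8, 36.4, 15.0 and 1.91 reads at a site 986 bp downstream of a TSS of *Pik3r2* (ratio 0.0749, 0.00842 to 0.313). The site in the locus of *Rab3il1*, which encodes a Rab exchange factor, had 46.8 reads at 0 hpi and 4.78 at 48 hpi (ratio 0.102, 0.0311 to 0.263) and lies in an intron of *Fads3*. Within *Vps13a* itself, 3017 bp downstream of a TSS, PU.1 fell from 26.9 to 2.87 (ratio 0.106, 0.0202 to 0.361), in the gene whose upstream site was higher at 48 hpi.

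*Rab43* had 44.0, 44.1, 23.3, 14.1 and 4.78 PU.1 reads in an annotated UTR, and *Rab30* 22.7 at 0 hpi and 2.87 at 48 hpi, 2514 bp upstream of its closest TSS. *Vps8*, a subunit of CORVET, had 34.0 and 4.78, *Rab44* 21.3 and 3.82, and *Rab11fip5* 28.4 and 5.73. None of these falls was to 0, and PU.1 was still called at 24 hpi at all but *Rab30*. At *Rab11fip5* the PU.1 fall lies in the bin next to the C/EBPα site that had no read at 48 hpi.

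At 0 hpi C/EBPα was called at 8 member sites and C/EBPβ at 3. The C/EBPβ sites of 0 hpi, which include those of *Atp6v0a1* and *Rab11b*, were also C/EBPα sites of 0 hpi. In its summit bin the *Rab11b* site was higher for C/EBPβ at 48 than at 0 hpi and lower for C/EBPα. The C/EBPα ratio of 0.425 had an interval (0.163 to 0.998) that nearly reaches 1. That bin held 10.1 C/EBPα reads at 48 hpi, below the 12.6 needed for a call, but another bin of the same site was called then. C/EBPα was also called at 0 hpi in the loci of *Atp6v1g1*, *Vps37b*, *Vps36*, *Rab6b* and *Vps26a*, with 11.3 to 19.2 reads.

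A list of other endolysosome genes that the symbols do not cover, such as lysosomal membrane proteins, ESCRT and sorting nexin genes, was counted in the same way. Of its 52 genes 51 were found in the annotation. Called bins were present in 17 of these at 48 hpi for C/EBPα (33.3%), in 26 for C/EBPβ (51.0%), and in 39 at 0 hpi (76.5%) and 45 at 48 hpi (88.2%) for PU.1, compared with 36.1%, 51.3%, 73.9% and 84.0% of the 119 members. In the same order, the shares of all protein-coding loci were 20.0%, 29.4%, 48.6% and 55.1%.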

How the data were processed

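Per the labels and the study's methods, the authors aligned reads to mm9 with Bowtie or ELAND, and the deposited values are read positions with their strands for uniquely aligned reads, without counts, normalization or an input library. Reads on chromosomes 1 to 19, X and Y were kept, 1 per position and strand, and their 5′ ends were moved 75 bp inward. They were counted in bins of 200 bp, and a genome of 2000000000 bp set the mean. Called bins separated by at most 1 bin formed a site, whose summit is the bin with most scaled reads over the libraries of the factor. Levels were scaled to all kept reads, and a factor was nearby when called within 1000 bp. Intervals were exact (Poisson, Clopper-Pearson). Records of 1 symbol that overlap were joined (Vps13d). Fewest reads for a call ranged over 9 to 15 (C/EBPα), 7 to 9 (C/EBPβ) and 9 to 11 (PU.1), so that shallow libraries miss weak sites. Members and gene lists were chosen with earlier results of these data known. Genes named with values were, per factor, the 8 with most reads at 48 hpi and the 8 with the largest ratios of 48 over 0 hpi, the 8 largest PU.1 falls, the 5 largest C/EBPα falls from 3 hpi, and the a subunit and retromer genes. Others were named after their values were seen (sites called at 0 hpi, genes with all 3 factors, no called bin or opposite PU.1 sites). The values of 1 named site are not reported here. Scripts used Python 3.11.15, numpy 2.4.6, pandas 2.3.3 and scipy 1.17.1. The calling was also run on simulated reads with an even background, which cannot vouch for calls where the background is uneven.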

Additional observations from a re-analysis of the deposited data

How the results depend on the processing

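Occupied loci and site directions were recomputed with reads as deposited, a shift of 100 bp, a grid offset by 100 bp, a Poisson p of 1e-05, 2-fold local enrichment, a 3-fold limit, wider bins, scaling to reads outside called bins, PU.1 within 200 bp and without partner genes, and with libraries thinned to the smallest of a factor, and apart from the values given next the counts stayed within 1.5 times. The width of the locus moved most counts furthest, whereas thinning did so for the C/EBPα sites lower at 48 than 3 hpi. With the gene span alone, 24 loci had C/EBPα and 38 C/EBPβ at 48 hpi, 33 C/EBPα and 51 C/EBPβ sites were higher at 48 than 0 hpi, and 16 PU.1 sites were lower. With 25 kb on either side, 83 C/EBPα, 128 C/EBPβ and 133 PU.1 sites were higher and 44 PU.1 sites lower. With C/EBPα libraries thinned to the smallest, 43 sites were lower at 48 than 3 hpi. Thinning also left 41 loci with C/EBPβ at 48 hpi. It left 36 C/EBPα and 56 C/EBPβ sites higher at 48 than 0 hpi. These 3 counts were just within 1.5 times of the main ones. Fewer or more bp examined give fewer or more sites by construction. Leaving out the C/EBPα libraries of 10, 30 and 60 min, chosen after seeing the data, gave 43 loci at 48 hpi, 52 sites higher than at 0 hpi and 66 lower than at 3 hpi. No paired analysis was possible because each factor had a single library at every time. Depth limits weak sites: the fewest reads for a call corresponded to 6.02 to 15.1 scaled reads for C/EBPα and 15.4 to 24.1 for C/EBPβ.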
